A study of Mus musculus with 2 samples.

Results

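The 40 genes described here encode the glutamate receptors of excitatory synapses and the proteins that hold them in the postsynaptic membrane. They were chosen by name, with earlier results of these data known, and all 40 were found among the 32285 genes of the files. Shares and medians of members beside all genes are therefore descriptions of a list that was not chosen blind. They comprise 4 AMPA receptor subunits (Gria1 to Gria4), 6 NMDA receptor subunits (Grin1, Grin2a, Grin2b, Grin2c, Grin2d and Grin3a), 5 kainate receptor subunits (Grik1 to Grik5), the delta receptor subunit Grid1 and 6 metabotropic receptors (Grm2, Grm3, Grm4, Grm5, Grm7 and Grm8). The others are 6 auxiliary subunits of AMPA receptors (Cacng2, Cacng3, Cacng5, Cacng8, Cnih2 and Cnih3), 4 scaffolds of the MAGUK family (Dlg1 to Dlg4), 5 deeper scaffolds (Shank1, Shank2, Shank3, Dlgap1 and Dlgap2), the kinase subunits Camk2a and Camk2b, and the adhesion molecule Nlgn1.

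Nuclear RNA of the hippocampus was counted by droplet sequencing in 8-month-old mice of 2 groups. Both groups carried 5XFAD, transgenes driven by the neuronal Thy1 promoter that lead to amyloid plaques. The groups were labelled 5XFAD and 5XFAD x MR1 KO, with a single library for each. MR1 presents vitamin B metabolites to MAIT cells, a kind of T lymphocyte, and the series asks how their axis bears on the swollen neurites near plaques. Each library pooled 1 male and 1 female mouse, and no mice without 5XFAD were used here. The label went against its own gene, since Mr1 gave 33 UMIs (unique molecule counts) in 12042 nuclei of the 5XFAD library and 67 in 17199 of the other, a ratio of 2.03 (1.32 to 3.18). Whether the Mr1 counts lie in the deleted part of the gene is not known, so the text says "the library labelled MR1 knockout".

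Glutamate opens AMPA, NMDA and kainate receptors, which are ion channels of several subunits each. AMPA receptors carry most of the fast current, and NMDA receptors, built on the obligatory subunit Grin1, let in the calcium that activates CaMKII and sets synaptic strength. PSD-95 (Dlg4) and its relatives tie the receptors to SAPAP (Dlgap) and SHANK proteins and to adhesion molecules such as neuroligin-1 (Nlgn1), which reach across the cleft. Metabotropic receptors act through G proteins, and several of them sit on axon terminals and damp release.

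The 5XFAD library held 25238 barcodes with 106861726 UMIs, and the library labelled MR1 knockout held 26212 with 85678909. After filters and removal of doublets, 12302 and 17637 nuclei were kept in 34 clusters. The classes below carry the name of the cell type whose markers led them and should be read as "like" that type. Levels are UMIs scaled to a total of 1000000 in the class (CPM), so they compare 1 gene between classes or libraries, never 2 genes. A ratio divides the level in the library labelled MR1 knockout by that in 5XFAD, with a 95% interval that covers counting error only. No test was possible with 1 library per group. Values of the 4 mice, told apart by Xist and Y-linked RNA, are given beside the ratios, and the 2 mice of a library shared a capture, so these are not independent replicates. Fewer cells of a kind and less RNA per cell cannot be told apart in a summed value. Median UMIs per nucleus in the compared neuron classes ran from 3431.5 to 6123 in the 5XFAD library and from 1972.5 to 4234 in the other, and mean mitochondrial shares from 1.52% to 2.06% and from 0.837% to 1.62%. The 5XFAD library also held 1145 striatal medium spiny nuclei, against 5 in the other, which went into no comparison. After filtering, 97 barcodes occurred in both libraries. Markers of choroid plexus epithelium, 5 genes led by the secreted carrier Ttr, summed to 122 to 221 CPM in the compared neuron classes of the 5XFAD library and to 597 to 1405 CPM in the other. None of these 5 markers was at 0 in the library labelled MR1 knockout, and 1 or 2 of them were at 0 in each class of the 5XFAD library. Their part in the ratios below was not tested.

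Of the 40 members, 29 had their highest level in the same class of the 9 described in both libraries. For 26 of these the class was the same in all 4 mice, the exceptions being Grm5, Dlg4 and Dlgap1. CA1 pyramidal nuclei held the highest level of 8 members, and CA2/CA3 pyramidal nuclei, inhibitory interneurons and cortical or subicular excitatory nuclei of 5 each. Dentate granule nuclei and oligodendrocyte precursors held 2 each, and astrocytes and oligodendrocytes 1 each. Some leads over the next class were narrow. Grin1 led by 1.05-fold and 1.06-fold, and Dlgap1 by 1.03-fold and 1.05-fold, in the 5XFAD library and the other. The share of all genes with 1 highest class in both libraries is not given here.

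**Figure D1:**
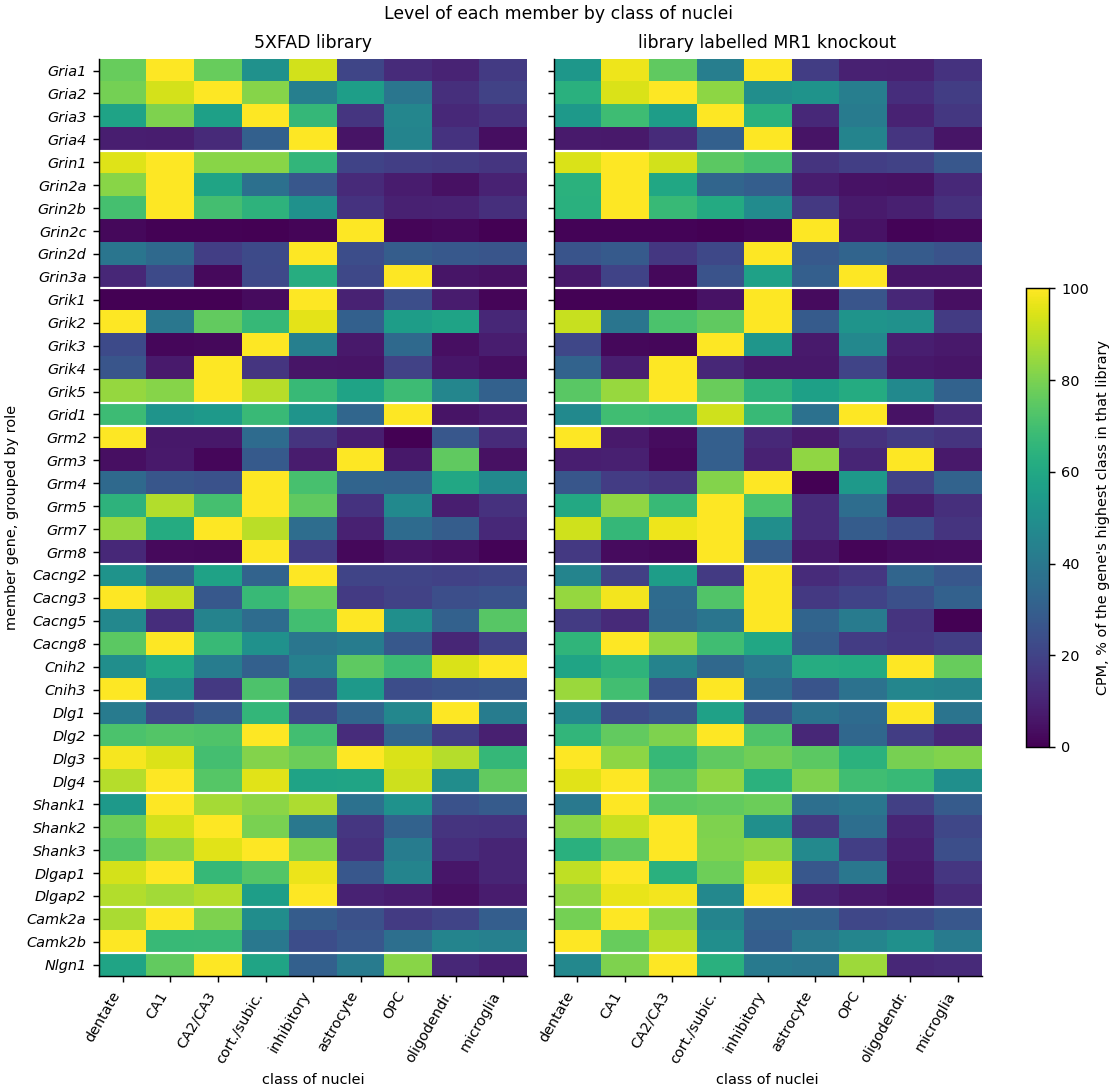
Level of each of the 40 members (rows, grouped by role with white lines) in 9 classes of nuclei (columns), as a percentage of the gene's highest class in the 5XFAD library (left) and in the library labelled MR1 knockout (right). Both panels show the same narrow bright cells, such as Grik4 in CA2/CA3 nuclei, Grin2c in astrocytes and Grm2 in dentate granule nuclei.

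Among the AMPA subunits, Gria4 was the most restricted. It stood at 1800 and 1814 CPM in the inhibitory interneurons of the 5XFAD library and the other, and the next class, the oligodendrocyte precursors, was 2.22-fold lower in both. Gria2, the subunit that makes AMPA receptors impermeable to calcium, was highest in CA2/CA3 nuclei in all 4 mice, but only 1.07-fold and 1.06-fold above CA1. Gria3 was highest in cortical or subicular nuclei, at 1193 and 1166 CPM, 1.24-fold and 1.45-fold above CA1. Gria1 had its highest level in CA1 nuclei of the 5XFAD library and in inhibitory interneurons of the other, and both classes lay within 1.07-fold of each other.

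The NMDA subunits split by class. Grin1, Grin2a and Grin2b were highest in CA1 nuclei in all 4 mice, with Grin2a at 3340 and 3213 CPM and Grin2b at 2824 and 2604 CPM. Grin2d, a subunit known from interneurons, was highest in inhibitory nuclei, 2.58-fold and 3.10-fold above the next class. Grin2c reached 116 and 115 CPM in astrocytes and at most 5.65 CPM in any other class. Grin3a was highest in oligodendrocyte precursors, at 369.7 and 434 CPM, and next in inhibitory interneurons, at 231 and 249 CPM. These 2 glial peaks stood above the background that neuron RNA left in glia, which is measured further on.

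Of the kainate subunits, Grik4, known from the mossy fibre synapse of CA3, stood at 889 and 929 CPM in CA2/CA3 nuclei and 3.80-fold and 3.15-fold lower in dentate granule nuclei, the next class. Grik1 marked inhibitory interneurons, at 1352 and 1126 CPM, with the next class 4.16-fold and 3.78-fold lower. Grik3 was highest in cortical or subicular nuclei, 2.32-fold and 1.90-fold above interneurons. Grik2 changed places between dentate granule nuclei and interneurons, and Grik5 was spread widely, with a 1.12-fold and 1.18-fold margin for CA2/CA3. Grid1, whose protein links to presynaptic neurexins, was highest in oligodendrocyte precursors, at 727 and 530.0 CPM. Among the 5 neuron classes described it was highest in dentate granule nuclei of the 5XFAD library (498 CPM) and in cortical or subicular nuclei of the other (491 CPM).

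The metabotropic receptors were each placed differently. Grm2 was highest in dentate granule nuclei, at 21.9 and 29.8 CPM, 2.88-fold and 3.32-fold above the next class, and Grm8 in cortical or subicular nuclei, at 820.4 and 689.5 CPM. Grm5 was highest in cortical or subicular nuclei, 1.13-fold and 1.201-fold above CA1. Grm7 led in CA2/CA3 nuclei of the 5XFAD library and in cortical or subicular nuclei of the other, by 1.12-fold and 1.03-fold. Grm4 was scarce in the 9 classes described, at 11.3 CPM or less, and stood at 37.7 CPM in the striatal nuclei, which are not among them. Grm3 was highest in astrocytes for 5XFAD (1184 CPM) and in oligodendrocytes for the other library (903 CPM), with CA2/CA3 nuclei lowest in both.

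Among the auxiliary subunits, Cacng8 was highest in CA1 nuclei, at 163 and 152 CPM, and Cacng2, also called stargazin, in inhibitory interneurons, at 115 and 124 CPM. In the 5XFAD library Cacng3 and Cnih3 were both highest in dentate granule nuclei, but in the other library Cacng3 led in interneurons and Cnih3 in cortical or subicular nuclei. Cacng5 stood at 13.6 CPM or less in every class described, and Cnih2 stood highest in microglia and oligodendrocytes, where background is high. For the scaffolds, Dlg2 was highest in cortical or subicular nuclei, at 6945 and 6095 CPM. Dlg4, Shank1 and Dlgap1 were highest in CA1, Shank2 in CA2/CA3 and Dlgap2 in inhibitory interneurons, and Shank3 changed between cortical or subicular and CA2/CA3 nuclei. Dlg1 stood apart with its highest level in oligodendrocytes, at 447 and 429 CPM, and Dlg3 was flat, its highest class being 1.503-fold and 1.56-fold above its lowest. Camk2a was highest in CA1, Camk2b in dentate granule nuclei and Nlgn1 in CA2/CA3 nuclei, in all 4 mice each.

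Levels in glia have to be read against RNA from neurons. The 6 neuron-only genes Slc17a7, Nrgn, Camkv, Sv2b, Syt1 and Rbfox3 stood in the 4 glial classes at a median of 27.0% to 43.1% of their level in their highest neuron class, and Nrgn reached 99.2% to 185%. Of members with at least 100 UMIs in a glial class, 2 of 20 in astrocytes, 1 of 24 in oligodendrocyte precursors, 1 of 23 in oligodendrocytes and 0 of 18 in microglia exceeded every one of these in both libraries. They were Grin2c and Grm3 in astrocytes, Grin3a in the precursors and Grm3 in oligodendrocytes. Grid1 in the precursors and Cnih2 in the precursors and in microglia exceeded Nrgn only in the 5XFAD library, and Dlg1 in oligodendrocytes only in the other.

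Dentate granule nuclei showed the largest differences of the 4 classes compared. Of the 40 members, 36 had at least 100 UMIs over both libraries, and Grin2c, Grik1, Grm4 and Cacng5 did not. Their median log2 ratio was -0.13 against 0.14 over all 11022 genes tested, and 25 of the 36 lay below a ratio of 1. The share of all genes below 1 is not given here or for the other classes. Past 1.5-fold, 1 member was higher (2.78%, against 11% of all genes) and 3 were lower (8.33%, against 3.59%) in the library labelled MR1 knockout. With the shift of all genes by 0.14 taken out, the members' median was -0.27.

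The AMPA and NMDA receptors all lay on the lower side. All 4 AMPA subunits and all 5 NMDA subunits tested had ratios below 1, with median log2 ratios of -0.34 and -0.30. Gria1 stood at 1909 CPM in the female and 2042 in the male 5XFAD mouse, and at 1074 and 1738 in the female and male mouse labelled MR1 knockout. The 2 groups of mice did not overlap, and the female mouse labelled knockout was far below the other 3. The ratio was 0.71 (0.69 to 0.72). Gria2 gave 2395, 2815, 1534 and 2212 CPM in the same order and a ratio of 0.74. Grin2a followed with 0.75, Grin2b with 0.83 and Grin1 with 0.81, and Grin3a, a subunit that lowers calcium entry, with 0.68 (0.56 to 0.81). Gria3 had 0.91, Gria4 0.85 and Grin2d 0.87.

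Grid1 had the lowest ratio of all members in this class, 0.51 (0.48 to 0.53). Its levels were 512 and 438 CPM in the female and male 5XFAD mice and 162 and 388 CPM in those labelled MR1 knockout. The female ratio was 0.32 and the male ratio 0.89, so most of the distance came from the female mice. Cnih3, a cornichon that slows AMPA receptor closing, behaved alike with 90.4, 106, 39.6 and 78.4 CPM and a ratio of 0.63 (0.56 to 0.72). Cacng3 gave 142, 115, 81.3 and 107 CPM and a ratio of 0.64 (0.58 to 0.71). Of the adhesion and scaffold genes on this side, Nlgn1 had a ratio of 0.76, Dlgap2 0.80, Dlg2 0.81, Shank1 0.87 and Dlgap1 0.91.

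Above 1 lay 4 of the 5 metabotropic receptors tested, 3 of the 4 MAGUK scaffolds, Grik4, Cnih2, Shank2 and Shank3. Grm3 stood at 42.5 and 50.7 CPM in the 5XFAD mice and at 99.4 and 46.4 CPM in the others, so its ratio of 1.60 (1.39 to 1.85) came from 1 mouse. Grm2, a receptor of mossy fibre terminals, gave 21.6 and 28.7 against 29.3 and 30.0 CPM and a ratio of 1.36 (1.10 to 1.69). Grik4 gave 244 and 166 against 322 and 287 CPM and a ratio of 1.26 (1.18 to 1.35), with 1.32 between the female and 1.73 between the male mice. Cnih2 had a ratio of 1.27, Dlg3 1.24, Dlg4 1.22, Grm8 1.18 and both Grm7 and Dlg1 1.08, although these last 2, like Shank2 and Shank3, fall below 1 once the shift of all genes is taken out. Shank2, Shank3, Grik2, Grik5, Grm5, Cacng2, Camk2a and Camk2b lay between 0.94 and 1.04. Grik3 had a ratio of 0.76 and Cacng8 of 0.81.

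Taking each mouse apart, both mice labelled MR1 knockout lay above both 5XFAD mice for 8 of the 36 members (22.2%, against 35.1% of all genes) and below them for 13 (36.1%, against 13.2%). The 8 were Grik4, Grm2, Grm7, Grm8, Cnih2, Dlg1, Dlg3 and Dlg4. The 13 were Gria1, Gria2, Gria3, Grin1, Grin2a, Grin2b, Grin3a, Grid1, Cacng3, Cnih3, Dlg2, Dlgap1 and Dlgap2. The members' median log2 ratio was -0.20 between the female mice and -0.10 between the male mice.

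**Figure D2:**
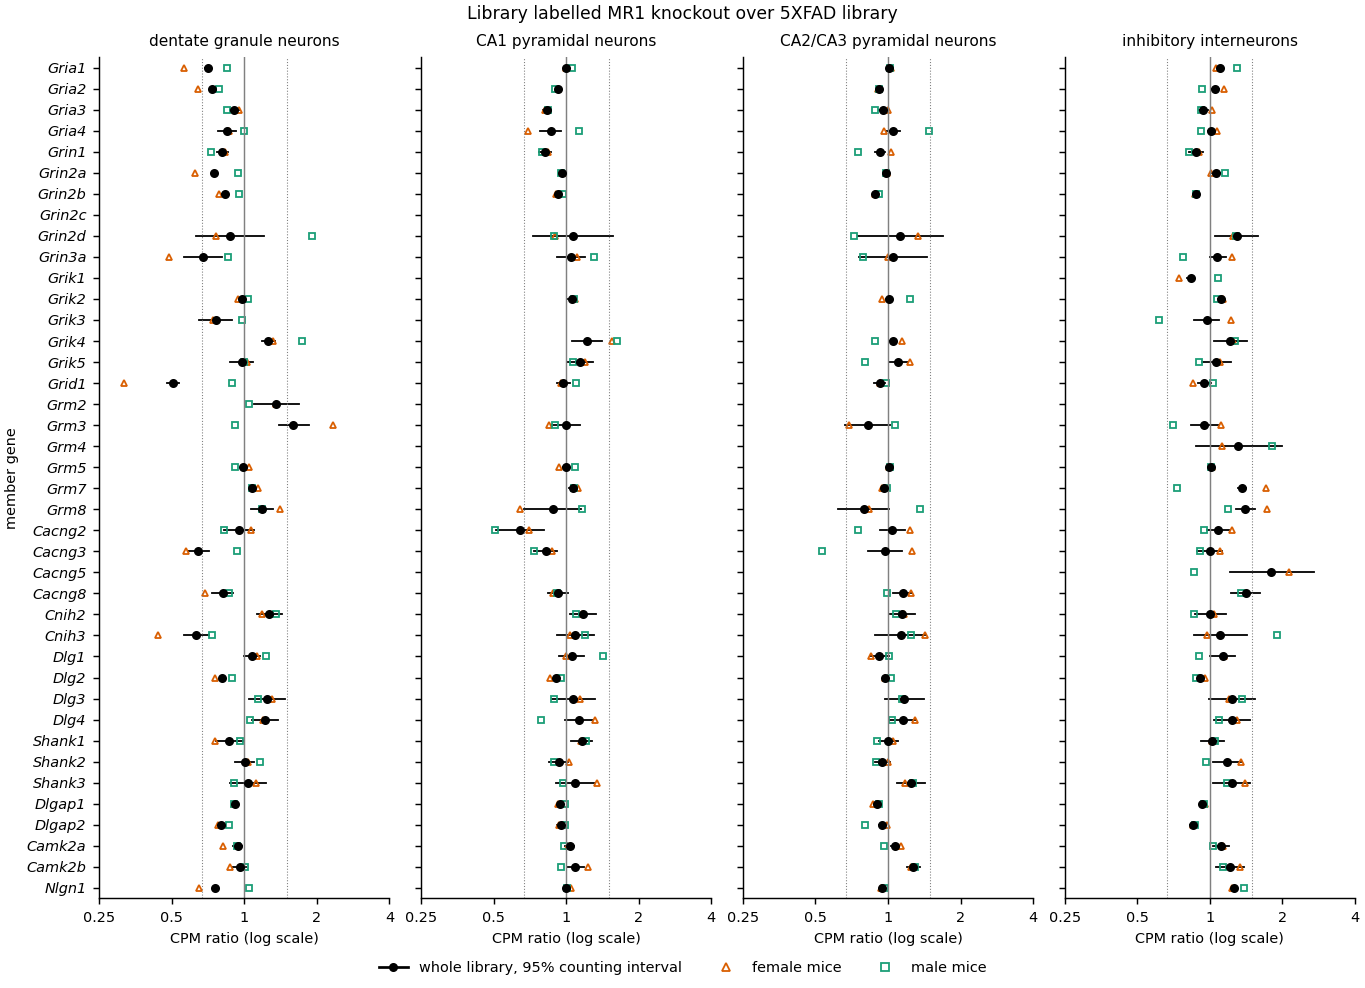
Ratio of CPM, library labelled MR1 knockout divided by 5XFAD (log axis), for each member with at least 100 UMIs in 4 neuron classes. Black points are whole libraries with 95% counting intervals, triangles the female mice, squares the male mice, and dotted lines mark 1.5-fold. Grid1 at 0.51 and Grm3 at 1.60 in dentate granule nuclei, Cacng2 at 0.64 in CA1 and Cacng5 at 1.80 in interneurons are the whole-library values farthest out.

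These dentate values moved with the clusters that held the nuclei. Cluster 15 held 85.4% of the dentate granule nuclei of the 5XFAD library and 25.8% of those of the other, and cluster 16 held 14.6% and 74.2%. The female mouse labelled MR1 knockout had 7.75% of its dentate nuclei in cluster 15, against 87.6% in the female 5XFAD mouse. For the male mice these shares were 56.9% and 82.6%. The median UMIs per nucleus in cluster 16 were 1720 and 1743.5, against 3759 and 2722.5 in cluster 15. Over the class, the 5 markers of immature neurons summed to 55.0 CPM in the 5XFAD library and 95.5 CPM in the other, with none at 0. The 12 markers of striatal medium spiny neurons summed to 449.8 and 264 CPM, with 0 and 1 of them at 0, and the part of either list in the ratios was not tested. Members and the pathway genes below were left out of the genes used for clustering, but they vary with those that were used, so levels between clusters are a description.

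Gria1 stood at 1962 CPM in cluster 15 and at 1248 in cluster 16 of the 5XFAD library, and at 1871 and 1070 CPM in the other. The step between clusters was thus larger than the step between libraries within one. Grid1 showed the same, with 516 and 266 CPM in the first library and 401 and 172 CPM in the other. Grm3 went the opposite way, at 45.3 and 66.5 CPM, and at 51.9 and 87.2 CPM, but within a mouse its clusters mostly lay closer. In clusters 15 and 16 the female 5XFAD mouse stood at 42.3 and 45.6 CPM. The mice labelled MR1 knockout stood at 89.7 and 100.6 CPM (female) and at 45.4 and 48.8 CPM (male). The male 5XFAD mouse had only 4 Grm3 UMIs in cluster 16. Within cluster 15, Gria1 had a ratio of 0.95 (0.92 to 0.98), Grid1 0.78, Cacng3 0.72, Cnih3 0.93 and Grm3 1.15, and no member passed 1.5-fold. By mouse, Grid1 stood there at 528 and 456 CPM in the female and male 5XFAD mice and 267 and 456 CPM in the others. Cacng3 gave 145 and 114 against 84.0 and 114 CPM. For these 2 genes the distance thus came from the female mice. Cluster 16, with 215 nuclei of the 5XFAD library, gave 0.65 (0.53 to 0.79) for Grid1 and 1.78 (1.41 to 2.28) for Grik4, while Dlg1, at 1.502, and Grm2, on 5 UMIs in the 5XFAD library, also passed 1.5-fold. The members' median log2 ratio was -0.04 within cluster 15 (0.07 over all genes) and 0.02 within cluster 16 (0.09). With clusters weighted equally in both libraries, 1 member passed 1.5-fold. The shares of all genes past 1.5-fold within a cluster or with equal weights are not given here.

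**Figure D3:**
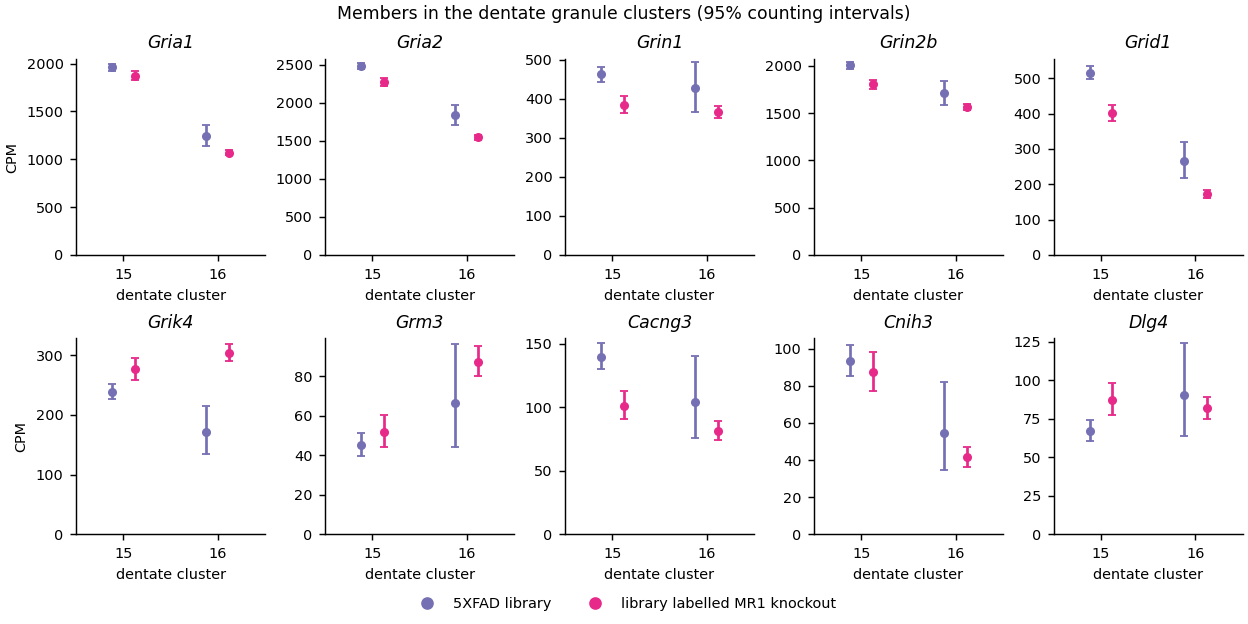
CPM of 10 members in the dentate granule clusters 15 and 16, with 95% counting intervals, for both libraries. Gria1, Gria2, Grid1, Cacng3 and Cnih3 are higher in cluster 15 than in cluster 16 in both libraries. Summed over each library, Grm3 is lower in cluster 15, but its clusters lay close within each female mouse.

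In CA1 pyramidal nuclei, all from cluster 4, 34 members could be compared. Grin2c, Grik1, Grik3, Grm2, Grm4 and Cacng5 had too few UMIs here and in CA2/CA3. The members' median log2 ratio was -0.003 against 0.10 over 9757 genes, and its sign changed with the processing. Past 1.5-fold, 0 members were higher (3.8% of all genes) and 1 was lower (2.94%, against 0.922%). This was Cacng2, with 38.0 and 35.4 CPM in the female and male 5XFAD mice and 26.8 and 17.9 CPM in those labelled MR1 knockout, a ratio of 0.64 (0.51 to 0.81). Its relative Cacng3 gave 112 and 147 against 98.0 and 109 CPM and a ratio of 0.82 (0.73 to 0.92).

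Gria3 stood at 965 and 990.1 CPM in the 5XFAD mice and at 785 and 831 CPM in the others, a ratio of 0.83 (0.80 to 0.87). Grin1 gave 466 and 500.5 against 393 and 396 CPM and a ratio of 0.82 (0.77 to 0.87). For both genes the mice of each library lay close together and apart from those of the other. Gria4, at 0.86, overlapped between the libraries, with 166 and 115 against 116 and 129.8 CPM. On the higher side, Grik4 gave 73.5 and 39.2 against 114 and 63.5 CPM and a ratio of 1.22 (1.06 to 1.41), again with overlap between the mice. Cnih2 had a ratio of 1.18, Shank1 1.16 and Grik5 1.14. Dlg4 had 1.13, but with 70.4 and 94.7 against 92.6 and 74.1 CPM the sexes went opposite ways. By role, 3 of 4 AMPA subunits were below 1 with a median log2 ratio of -0.16. All 3 kainate subunits tested were above 1 with 0.19, although Grik2, at 1.05, falls below once ratios are set against the median of all genes. The remaining ratios lay between 0.88 for Grm8 and 1.09 for Cnih3.

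Both mice labelled MR1 knockout lay above both 5XFAD mice in CA1 for Grik2, Grm7, Cnih2, Cnih3, Shank1 and Nlgn1 (6 of 34, 17.6%, against 31% of all genes). They lay below them for Gria2, Gria3, Grin1, Grin2a, Grin2b, Cacng2, Cacng3, Cacng8 and Dlg2 (9 of 34, 26.5%, against 11.6%). The 13 astrocyte markers summed to 1019 CPM in the CA1 nuclei of the 5XFAD library and 1633 CPM in the other, and the 8 dentate markers to 209.5 and 319.8 CPM, with none at 0. Their part in these ratios was not tested.

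In CA2/CA3 pyramidal nuclei the median log2 ratio of 34 members was 0.01 against 0.08 over 11043 genes, with 18 above and 16 below a ratio of 1, and its sign too changed with the processing. Past 1.5-fold there were 0 higher members (2.88% of all genes) and 0 lower ones (0.942%). Camk2b had the highest ratio, 1.27 (1.196 to 1.35), with 215 and 212 CPM in the 5XFAD mice and 268 and 274 CPM in the others. Shank3 followed, with 47.6 and 48.4 against 56.1 and 61.7 CPM and a ratio of 1.245 (1.09 to 1.42). For both genes the mice of each library lay apart. Dlg3 had 1.17 and Dlg4 and Cacng8 had 1.15 each.

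The lowest ratios in CA2/CA3 were those of Grm8 with 0.79 (0.62 to 1.01), Grm3 with 0.82 (0.66 to 1.02), Grin2b with 0.89, Dlgap1 with 0.90 and Gria2 with 0.92. Grin2b gave 2005 and 1933 against 1763 and 1771 CPM, apart between the libraries, whereas Grm8, at 19.8 and 8.64 against 16.6 and 11.8 CPM, was not. By role, 4 of 5 auxiliary subunits were above 1, of which Cacng2, at 1.04, falls below once ratios are set against the median of all genes, and 3 of 5 SHANK and SAPAP scaffolds were below 1. Both mice labelled MR1 knockout lay above both others for Gria1, Cnih2, Dlg3, Dlg4, Shank3 and Camk2b (6 of 34, 17.6%, against 29.9%). They lay below for Gria2, Gria3, Grin2b, Grid1, Dlgap1 and Nlgn1 (6 of 34, 17.6%, against 10.2%). Cluster 10 supplied 63.5% of the class for 5XFAD and 74.9% for the other library, and Camk2b had ratios of 1.32 there and 1.13 in cluster 12. In this class the 8 dentate markers summed to 263 and 337 CPM and the 10 oligodendrocyte markers to 351 and 270 CPM, with none at 0. The part of either list in the ratios was not tested.

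Inhibitory interneurons were the only one of the 4 classes in which the members' median log2 ratio, 0.11, was above that of all genes, 0.08 over 10528 genes. It was 0.16 between the female and -0.07 between the male mice, so its direction did not hold in both. Of 38 members tested (all but Grin2c and Grm2), 1 was higher past 1.5-fold (2.63%, against 3.76% of all genes) and 0 were lower (0.988% of all genes). This was Cacng5, a low gene with 37 and 91 UMIs and a ratio of 1.80 (1.22 to 2.72). Its mice gave 8.33 and 7.94 against 17.8 and 6.81 CPM, so the male mouse labelled knockout was the lowest of all.

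Cacng8 was more even, with 63.6 and 68.3 CPM in the 5XFAD mice, 89.9 and 91.9 CPM in the others and a ratio of 1.41 (1.23 to 1.62). Grm8 gave 134 and 145 against 230.4 and 172 CPM and a ratio of 1.40 (1.28 to 1.54). Nlgn1, taken up after its values were seen, gave 1631 and 1411 against 2019 and 1955 CPM and a ratio of 1.26 (1.22 to 1.29). For all 3 the mice of the libraries lay apart. Grm7, whose protein damps release at terminals onto interneurons, gave 684 and 820.4 against 1174 and 597 CPM, so its ratio of 1.36 (1.30 to 1.41) joined mice on both sides. Grm4 had a ratio of 1.31 on 39 and 70 UMIs, with an interval that reached below 1. Lowest were Grik1 with 0.83, at 1476 and 1159 against 1097 and 1253 CPM with the sexes on opposite sides, Dlgap2 with 0.85, Grin2b and Grin1 with 0.88 each and Dlg2 with 0.91. By role, the metabotropic receptors had a median log2 ratio of 0.39 with 4 of 5 above 1, of which Grm5, at 1.01, falls below once ratios are set against the median of all genes. The MAGUK scaffolds had 0.24 and 3 of 4. For Gria1, Grin2a, Grin2d, Grik4, Grm4, Grm8, Cacng8, Dlg3, Dlg4, Shank3, Camk2b and Nlgn1, both mice labelled MR1 knockout lay above both others (12 of 38, 31.6%, against 26.6%). They lay below for Grin1, Grin2b and Dlgap2 (3 of 38, 7.89%, against 12.4%). The 8 dentate markers summed to 273.6 and 383.9 CPM in these nuclei, with none at 0. The 12 striatal markers went the other way, at 907 and 649 CPM with none at 0. So did the 12 CA2/CA3 markers, at 644 and 508 CPM, with 1 of them at 0 in the 5XFAD library. The part of these lists in the ratios was not tested.

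The ratios of Grm8, Grm7 and Nlgn1 were not alike in the 3 interneuron clusters, and the differences between clusters were not tested. In cluster 24, named by Nxph1, Erbb4, Lhx6 and Sst, which held 57.9% and 49.9% of the class, Grm8 had a ratio of 1.81, Grm7 of 1.58 and Nlgn1 of 1.51. In cluster 25, named by Adarb2, Vip and Erbb4, they had 1.06, 1.05 and 0.97. In cluster 18, named by Lamp5 among others, Grm7 had 1.59, Nlgn1 1.01 and Grm8 1.46 on 19 and 49 UMIs. Between the male mice Grm7 was lower in the one labelled MR1 knockout in all 3, going from 831 to 786 CPM in cluster 24, from 1138 to 532 in cluster 25 and from 136 to 90.5 in cluster 18. The step in cluster 24 was small, and cluster 18 held only 23 nuclei of the male 5XFAD mouse. Sst itself had a ratio of 1.94 in cluster 24, at 669 and 978 CPM in the female and male 5XFAD mice and 1714 and 1098 CPM in the others, and Pvalb one of 0.97 (0.76 to 1.22). Adarb2, a marker of the other interneuron kinds, stood in cluster 24 at 12.7 and 6.53 against 72.6 and 8.57 CPM, highest in the female mouse labelled MR1 knockout. Whether the mix of interneuron kinds within cluster 24 differed was not tested. Cacng8 lay above 1 in all 3 interneuron clusters, at 1.31, 1.39 and 1.62 in clusters 18, 24 and 25, and Grik1 below 1 in all 3, at 0.88, 0.76 and 0.80.

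Across classes, a few members kept 1 side. Of the 24 members with at least 100 UMIs in each of the 8 clusters that held 100 nuclei in both libraries, Grin1 and Grin2b were below 1 in all 8 (8.33%, against 3.11% of 3058 genes). Grin1 ranged from 0.78 to 0.94 and Grin2b from 0.86 to 0.93. In cluster 15 alone Grin1 stood at 462 and 481 CPM in the female and male 5XFAD mice and 408 and 360.1 CPM in the others. Grin2b gave 2033 and 1902 against 1725 and 1870 CPM there. For both genes the mice of the libraries lay apart in cluster 15, for Grin2b by little between the male mice. Cluster 15 is among the 8 that picked these genes, so this is no separate evidence. The share of all genes apart there is not given here. Grin2b was also the only member of 34 for which both mice labelled MR1 knockout lay below both 5XFAD mice in all 4 classes (2.94%, against 0.382% of 9158 genes). No member lay above in all 4 (4.82% of these genes). Grin1 failed this in CA2/CA3, where the female mice stood at 377 and 386 CPM.

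On the other side, Camk2a and Camk2b, the 2 main subunits of CaMKII, were above 1 in all 8 clusters (8.33%, against 9.71% of all genes). The share of members was thus no larger than that of all genes. Camk2a ranged from 1.02 to 1.27 and Camk2b from 1.08 to 1.41. Over the dentate class as a whole, where the libraries filled different clusters, they had 0.94 and 0.96. Against the median ratio of all genes in each cluster, Camk2a was above in 6 of 8 and Camk2b in 8 of 8, while Grin1 and Grin2b stayed below in 8 of 8. Grid1 was also below that median in 8 of 8, and below 1 in 7. The share of all genes that kept 1 side of the median in all 8 clusters is not given here. The counts against the median thus have no background. Dlg3 was above 1, and above the median of all genes, in 8 of 8 clusters, from 1.07 to 1.31, but had fewer than 100 UMIs in cluster 18. Dlg4 was above 1 in 7 of 8, the exception being dentate cluster 16 with 0.91, and it too had fewer than 100 UMIs in cluster 18. Grin1, Grin2b, Camk2a and Camk2b came out of the same scan of all members tested. Like the other genes here, they were noted after their values were seen. The 8 clusters come from the same 4 mice.

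**Figure D4:**
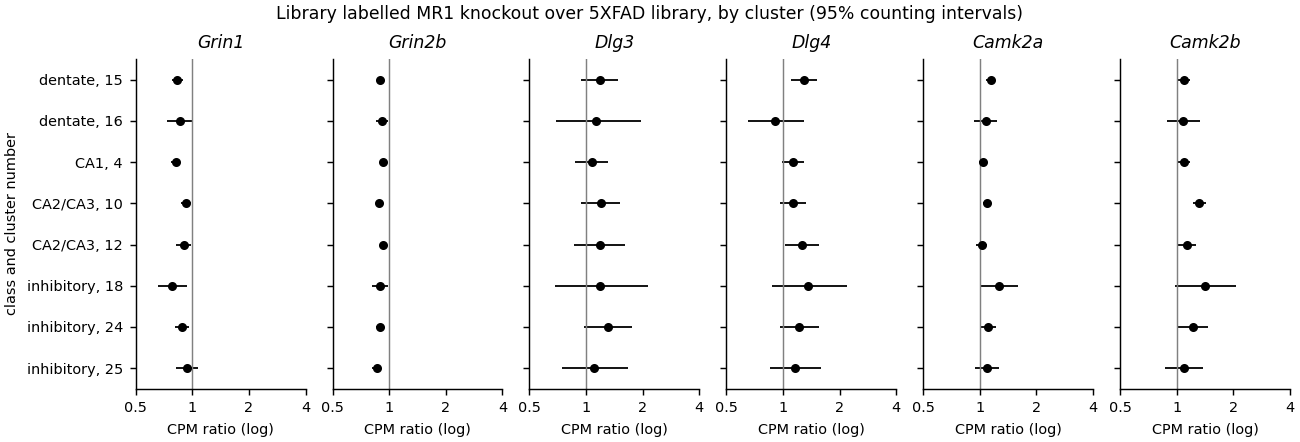
Ratio of CPM, library labelled MR1 knockout divided by 5XFAD (log axis), for 6 members in the 8 neuron clusters with at least 100 nuclei in each library, with 95% counting intervals. Grin1 and Grin2b sit left of 1 in all 8 clusters, and Dlg3, Camk2a and Camk2b sit right of 1, many with intervals that reach 1. Dlg4 sits left of 1 only in dentate cluster 16.

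Grin1 (chromosome 2, 25291181 to 25319187, minus strand) and Camk2b (chromosome 11, 5969644 to 6066362, minus strand, both on GRCm38) lay on opposite sides of 1 in all 8 clusters. Their promoters are shown for that reason, although 9.71% of all genes were above 1 in all 8, as Camk2b was. The stretches run from 250 bases before to 50 after the start of transcription, as given by RefSeq for GRCm38.p6. The gene coordinates come from GENCODE, and the Camk2b stretch lies wholly inside them, downstream of the GENCODE start. Capitals mark GC boxes, GGGCGG or its reverse complement CCGCCC, searched on both strands. A GC box is the sequence bound by Sp1, a general activator.
Grin1 promoter, chr2:25319138-25319437, minus strand: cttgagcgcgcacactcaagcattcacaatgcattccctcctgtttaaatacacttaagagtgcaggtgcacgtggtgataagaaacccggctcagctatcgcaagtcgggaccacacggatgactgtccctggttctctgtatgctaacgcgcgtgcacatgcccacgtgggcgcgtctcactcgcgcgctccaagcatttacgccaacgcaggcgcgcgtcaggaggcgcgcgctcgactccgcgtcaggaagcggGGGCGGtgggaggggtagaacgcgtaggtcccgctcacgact
Camk2b promoter, chr11:6065699-6065998, minus strand: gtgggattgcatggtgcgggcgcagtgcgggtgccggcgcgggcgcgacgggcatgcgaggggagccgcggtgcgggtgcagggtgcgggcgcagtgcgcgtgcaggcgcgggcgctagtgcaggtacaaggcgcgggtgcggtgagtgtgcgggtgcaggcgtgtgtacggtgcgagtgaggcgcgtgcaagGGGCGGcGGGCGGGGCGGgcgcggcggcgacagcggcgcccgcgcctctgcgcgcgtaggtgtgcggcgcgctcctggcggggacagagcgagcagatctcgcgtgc
The Grin1 promoter held 1 GC box and the Camk2b promoter 3, of which 2 share a base. Of all 32851 promoters in the table, 35.7% held at least 1, and of 41 promoters of 27 member genes, 46.3% did. The matches describe the letters only, and no binding was measured.

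The wider pathway was followed in 51 more genes of glutamate receptors, their partners, scaffolds and adhesion. In dentate granule nuclei 5 of 46 tested were higher and 2 lower past 1.5-fold, where 11% and 3.59% of all genes were. In CA1 it was 2 and 2 of 47 (3.8% and 0.922% of all genes), in CA2/CA3 4 and 0 of 46 (2.88% and 0.942%) and in interneurons 3 and 0 of 47 (3.76% and 0.988%). Their median log2 ratios were -0.01, 0.09, 0.13 and 0.05 in that order. Camk2d, a subunit of CaMKII found in many tissues, was the highest of them in the 3 excitatory classes. In dentate granule nuclei it stood at 45.1 and 38.9 CPM in the 5XFAD mice and at 96.0 and 84.7 CPM in the others, a ratio of 1.97 (1.71 to 2.28). Within dentate cluster 15 it stood at 42.1 and 70.3 CPM in the 2 libraries, and within cluster 16 at 68.9 and 95.5 CPM, on 29 UMIs in the 5XFAD library. Its ratio was 1.90 in CA1 and 1.73 in CA2/CA3, but 1.13 in interneurons. The mice of the libraries lay apart in the same direction in all 4 classes for Olfm1, Pick1 and Lin7b of 44 pathway genes, all higher in the library labelled MR1 knockout, as were 4.82% of all genes.

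Gsg1l, an auxiliary subunit that dampens AMPA receptors, had ratios of 1.87 in dentate granule nuclei, where the female mouse labelled MR1 knockout stood at 181 CPM and the other 3 mice at 47.3 to 68.4 CPM, and 0.61 in CA1. Among the adhesion genes, Lrrtm4, which is needed for dentate synapses, had 0.65 in dentate granule nuclei. Lrrtm3 had 1.70 in CA2/CA3, 0.64 in CA1 and 0.84 in interneurons, and Nlgn2, the neuroligin of inhibitory synapses, had 1.55 in interneurons. The lowest scaffold was Frmpd4 in dentate granule nuclei, with 0.64. Olfm1, a secreted protein found with AMPA receptors, had 1.503 (1.41 to 1.60) in CA1 and Lin7b 1.60 in interneurons. On the lower side, Homer1, a scaffold that binds metabotropic receptors, had 0.84 in CA2/CA3, and Akap5 had 0.86 in interneurons.

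Ratios moved with gene length, and many members are long genes. In dentate granule nuclei the median log2 ratio of all genes was 0.29 under 20 kb, 0.11 from 20 to 100 kb, -0.03 from 100 to 300 kb and -0.20 above 300 kb. In CA1 it went from 0.16 to -0.03, in CA2/CA3 from 0.13 to -0.03 and in interneurons from 0.14 to -0.04. Above 300 kb stood 15 of the 36 members tested in dentate granule nuclei, with a median of -0.24. The 11 members of 20 to 100 kb had -0.09 in dentate granule nuclei, 0.10 in CA1 and 0.17 in CA2/CA3, and the 13 in interneurons had 0.30. Grin1 is 28.0 kb long and Grin2b 460.3 kb, and Dlg3 is 50.7 kb and Camk2b 96.7 kb. The part of length in these ratios was not tested.

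**Figure D5:**
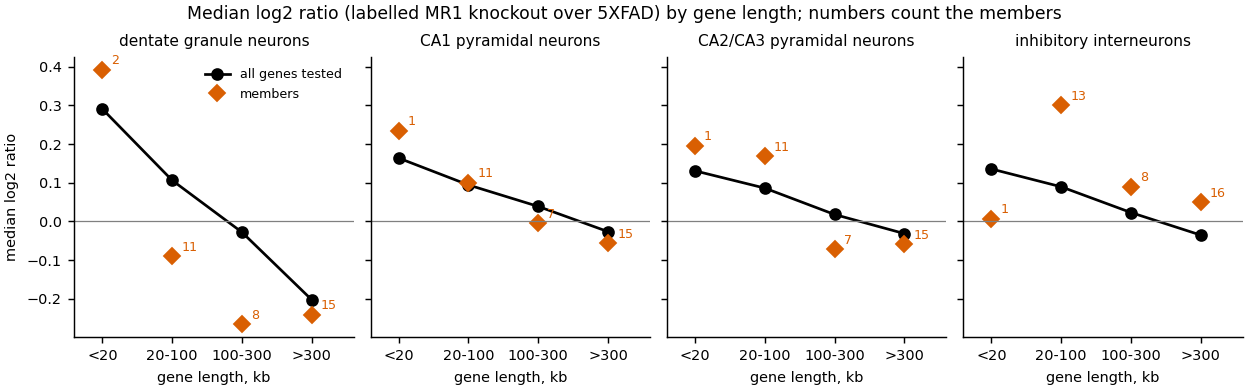
Median log2 ratio (library labelled MR1 knockout over 5XFAD) by annotated gene length in 4 neuron classes, for all genes tested (black) and for members (diamonds, with the number of members beside each). The line of all genes falls with length in each class, most steeply in dentate granule nuclei, from 0.29 to -0.20.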

How the data were processed

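The authors' deposited files hold raw counts, as whole UMIs by gene and barcode in a matrix per library. The submitters' processing notes name Cell Ranger 7.0.0, mm10 and Seurat, without saying what Seurat did. For annotation, strand and intron settings, nothing is given in the sources used here. Of 32285 gene IDs, 32235 matched GENCODE M21, which gave coordinates and lengths.

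Nuclei with at least 500 genes and under 5% mitochondrial UMIs were kept (15408 and 22263). Scrublet scores were thresholded at 0.8% doublets per 1000 barcodes, which marked 20.2% and 20.8%; its automatic threshold marked 6.43% and 2.65%. Both libraries were clustered together in scanpy 1.11.5 (2500 variable genes without members, pathway, sex-linked and mitochondrial genes, 40 components, 20 neighbours, Leiden resolution 1.5). A cluster was named when at least 3 markers of 1 of 20 lists were among its top 50 genes. It stayed unnamed where lists tied or where another list had more markers among its top 10 genes. The same held where its median UMIs were low and none of its markers was among those 10. Cluster 3, with 816 and 779 nuclei and the CA1 markers Fibcd1, Mpped1 and Man1a, stayed unnamed and is not in the CA1 class. Clusters with both Xist and Y-linked UMIs in 15% or more of nuclei were left out as mixed.

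CPM came from UMIs summed over the nuclei of a class in each library. Ratios carry exact conditional binomial intervals and CPM exact Poisson intervals. A gene was tested with at least 100 UMIs over both libraries. A nucleus was assigned to the female mouse on 2 or more Xist UMIs without Y-linked ones, and to the male on Y-linked UMIs without Xist (5406 and 3475 nuclei for 5XFAD, 9164 and 3129 for the other library, with 3421 and 5344 left unassigned). In each compared class the 5 members with the highest and the 5 with the lowest ratio were named, and 2 and 2 pathway genes, of which 1 is not reported here. On counts simulated at the depth of the dentate granule class, 99.0% of 100 genes set 2-fold higher and 96.0% of 100 set 2-fold lower passed 1.5-fold, as did 0.369% (higher) and 0.175% (lower) of 10842 unchanged genes. The simulated counts held counting error only, without differences between mice, captures or clusters. These shares are therefore not error rates of the comparison itself. Members and lists were chosen with earlier results of these data known. Alternatives are given in the closing section.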

Additional observations from a re-analysis of the deposited data

Results flagged for a closer look

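In 3 cases the female and the male mice of the 2 libraries lay on opposite sides of a ratio of 1, with 95% counting intervals that excluded 1 in both. Dlg4 (PSD-95) in CA1 pyramidal nuclei had a ratio of 1.32 between the female mice and 0.783 between the male mice. Grm7 in inhibitory interneurons had 1.72 and 0.728. Grik1 in inhibitory interneurons had 0.743 and 1.08. With 1 mouse of each sex per library, sex and individual mouse cannot be told apart, and the difference itself was not tested. Within interneuron cluster 24, Grm7 stood at 839 and 831 CPM in the female and male 5XFAD mice and at 1509 and 786 CPM in the others, so its male mice differed little. Grik1 stood there at 1267 and 1056 against 774 and 1161 CPM.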

How the results depend on the processing

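Each library is 1 sample, so no replicate could be left out, and no paired analysis was possible because the result comes from no test. The 2 mice of a library stood in for this. In dentate granule nuclei the members' median log2 ratio (-0.1334) stayed below 0 in every alternative run, although it was 0.0198 within cluster 16, which was not among them. It was -0.2746 scaled to the median ratio of all genes, -0.0338 for the female 5XFAD mouse against the male mouse labelled MR1 knockout, -0.0191 with clusters weighted equally and -0.0409 in cluster 15 only, an alternative added after seeing the data. The 4 members past 1.5-fold became 9 between the female mice, 1 between the male mice, 1 between the female 5XFAD and the male knockout-labelled mouse, 1 with clusters weighted equally, 0 in cluster 15, 13 at the lower fold threshold tried and 0 at 2-fold. The share of all genes called under each alternative is not given, here or for the other classes. These counts thus have no background and show only how the calls moved.

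In CA1 the median (-0.0029) turned to 0.0107 with at least 1000 genes per nucleus, 0.0123 with members kept in clustering, 0.0063 at resolution 1.0 and 0.0151 with no UMI minimum. It stayed below 0 but moved to -0.0266 with a mitochondrial limit of 2%, -0.0172 with doublets kept, -0.1012 scaled to the median ratio, -0.0251 between the male mice and -0.0252 with nuclei thinned to 1000 UMIs. The count of 1 became 0 with the 2% limit and at 2-fold, 4 with no UMI minimum, and 2 between the female mice, between the male mice and between the female 5XFAD and the male knockout-labelled mouse. In CA2/CA3 the median (0.0061) turned to -0.0304 with the 2% limit, -0.0202 at resolution 1.0, -0.0082 with doublets kept, -0.0764 scaled to the median ratio, -0.0147 with no UMI minimum, -0.0332 between the male mice, -0.0083 between the female 5XFAD and the male knockout-labelled mouse and -0.0004 with thinning. The count of 0 became 2 with doublets kept, between the female 5XFAD and the male knockout-labelled mouse and at the lower threshold, and 1 with no UMI minimum, between the male mice and with thinning.

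In interneurons the median (0.1086) turned to -0.0656 between the male mice. The count of 1 became 0 with the 2% limit, between the female 5XFAD and the male knockout-labelled mouse, with clusters weighted equally and at 2-fold, 2 between the female mice, and 7 at the lower threshold. Cacng5 in interneurons turned to 0.857 between the male mice and 0.817 between the female 5XFAD and the male knockout-labelled mouse, and Grm3 in dentate granule nuclei to 0.916 between the male mice. Of the recomputed ratios of single members, 383 stayed inside their interval, 104 left it and 3, those of Cacng5 and Grm3 above, turned. A further 12 ratios of members not past 1.5-fold crossed 1, 7 of them between the male mice. The members with 1 highest class in both libraries (29) numbered 29 to 32. The cause of these changes was not tested, other than that leaving out clusters or mice leaves fewer nuclei. Depth limits the low genes most: Grin2c, Grm2, Grm4 and Cacng5 had fewer than 100 UMIs in 8 of 9 classes.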
